A study of Mus musculus with 2 samples.

Results

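Nkx6.1 peaks in mouse pancreatic islets were unevenly spread over the genome, and the 40 windows of 1 Mb that hold 20 or more of them are described here. The windows were found by tiling the 19 autosomes from position 1 and assigning each peak by its centre. They hold 909 of the 15239 peaks in the list. The list comes from a ChIP-seq experiment (chromatin immunoprecipitation with sequencing), in which DNA bound by a protein is pulled down with an antibody and read. A set of islets taken from 1 mouse gave 1 library made with an antibody against Nkx6.1 and 1 input library, which is sheared chromatin sequenced with no antibody. The ChIP library is labelled with a C57Bl/6 genetic background, and both libraries carry pancreatic islet as their tissue and "normal" in their titles. The labels describe no treatment and no engineered allele.

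Nkx6.1 is a homeodomain transcription factor. It reads short AT-rich DNA sequences, is found in the insulin-producing beta cells of the adult islet, and is known for keeping those cells in their differentiated state and for holding back genes of other islet cell types. Islets also contain alpha, delta and other cells, so an islet library is a mixture. Transcription factors often bind at several enhancers around a gene they regulate, and enhancers of cell type genes can spread over long distances, so the number of bound sites per megabase varies along a chromosome. The peak list pairs no site with a gene and its positions are on the mm9 build. No gene table of that build was used here, so the windows are given by position, with no gene or sequence, and the islet label was not checked against marker loci.

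The windows were chosen by their number of peaks, and ChIP tags, input tags and folds all enter the peak calls that were counted. All values below are therefore a description of 1 pair of libraries, and no test was made between the dense windows and the rest. Intervals are exact 95% intervals for counting error only, Poisson for the tags of a peak and Clopper-Pearson for shares of peaks. Those beside a median are order-statistic 95% intervals over peaks and treat peaks as independent. The ChIP library held 202780986 tags, per the file header, of which it counts 1676225, or 0.827%, in peaks. The column of ChIP tags used below counts tags differently and sums to 3233660 over autosomal peaks alone.

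Between the first and last peak of each autosome there were 2414 windows with a median of 5 peaks and a mean of 6.23, and 257 of them were empty. The 40 windows with 20 or more peaks were 1.66% of these windows and held 6.04% of the 15045 autosomal peaks. The threshold of 20 did not fall in a gap of the distribution. There were 20 windows with 18 peaks, 13 with 19, 7 with 20, 11 with 21, 7 with 22 and 2 with 23. Above these, 4 windows held 24 peaks, 2 held 25, 4 held 26, 2 held 28 and 1 held 32. The 13 windows just outside, with 19 peaks each, had a median fold over input of 5.93, and 33.6% of their 247 peaks had input above the caller's minimum value. The 7 windows just inside had a median fold of 5.55, and 40.7% of their 140 peaks had input above that minimum.

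**Figure D1:**
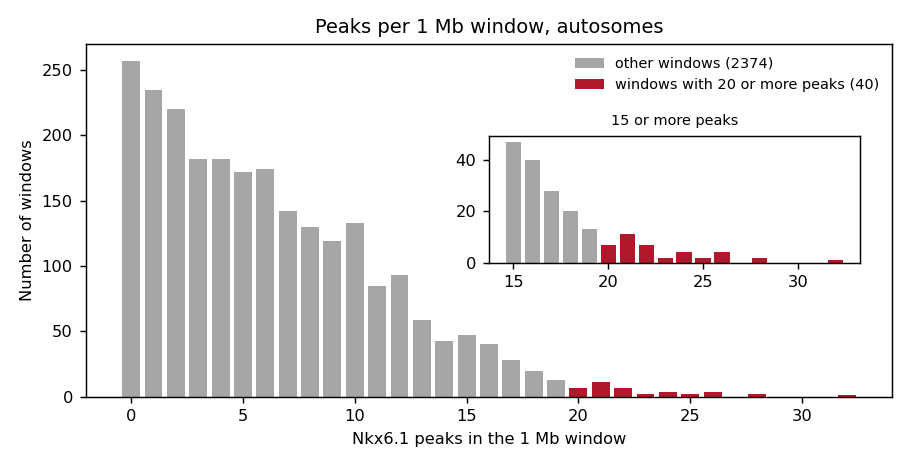
Number of autosomal 1 Mb windows (vertical axis) by the number of Nkx6.1 peaks they hold (horizontal axis), with the 40 windows of 20 or more peaks in red and the others in grey. The inset enlarges windows with 15 or more peaks, where the counts decline from 13 windows with 19 peaks to 1 window with 32.

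Dense windows lay on 16 of the 19 autosomes. Chromosome 11 held 7 of them, which took up 5.88% of its 119 windows and 16.4% of its 959 peaks. Chromosomes 2 and 7 held 4 each. Chromosomes 4, 9 and 10 held 3 each, and chromosomes 1, 5, 15, 17, 18 and 19 held 2 each. Chromosomes 3, 6, 8 and 13 held 1 each. None lay on chromosome 12, 14 or 16, where the fullest windows held 18, 19 and 17 peaks. Outside its dense windows chromosome 11 held a median of 6 peaks per window, as did chromosomes 2, 9 and 13. The median was 5 for all windows that were not dense, and 7 for those of chromosome 19.

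In the map of peak positions and in the text, dense windows carry a letter in their order along the chromosome, so that chr11 c is the third dense window of chromosome 11. Tags below are ChIP tags in the column that the peak caller compared with input, rescaled to whole tags. Input tags are as deposited, with 21.4 standing for any lower count. A fold over input whose input stands at 21.4 is a lower limit.

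The fullest window was chr18 b, from 55000001 to 56000000 on chromosome 18, with 32 peaks. It was built from moderate sites. Its peaks held 110 to 384 ChIP tags, with a median of 166.5. Folds over input ran from 4.05 to 12.4 with a median of 5.56. Of the 32 peaks, 5 reached 8-fold, or 15.6%, beside 24.1% of all autosomal peaks. Its top peak by score, at 55709503 to 55709635, had 384 tags (347 to 424) over 27 input tags and held 6.52% of the tags in the window's peaks, the lowest such share among the 40 windows. The peaks were crowded at the start of the window, where 11 lay between 55060264 and 55152678. No pair of centres was under 1 kb apart, and the longest empty stretch between neighbours was 204 kb.

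The 2 windows of 28 peaks differed in strength. In chr15 a, from 27000001 to 28000000 on chromosome 15, the median fold was 5.62 and 4 peaks (14.3%) reached 8-fold. The top peak by score, at 27425962 to 27426094, held 419 tags (380 to 461) over 25 input tags, a fold of 13.2, and opened a group of 4 peaks within 10.6 kb. In chr17 b, from 56000001 to 57000000 on chromosome 17, the median fold was 6.15 and 8 peaks (28.6%) reached 8-fold. Over all autosomal peaks the median fold was 5.63 and 24.1% reached 8-fold. No peak in chr17 b held fewer than 134 tags, whereas the weakest peak of each other dense window lay below that. Of its 28 peaks, 21 scored above the autosomal median of 175, the most of any autosomal window. The best of them, at 56549051 to 56549183, had 455 tags (414 to 499) and an input at the minimum, a fold of 16.7. Neither window sat in a crowded neighbourhood, since chr15 a had 4 and 0 peaks in the windows before and after it and chr17 b had 3 and 5.

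Among the 4 windows of 26 peaks, chr3 a stood out for strength. It spans 51000001 to 52000000 on chromosome 3, its median of 207 tags and median fold of 7.62 were the second highest among the 40 windows, and 11 of its 26 peaks reached 8-fold. Its highest scoring peak, at 51025987 to 51026119, had 950 tags (891 to 1012) with input at the minimum and a fold of 35.0, and lay 14.4 kb from the nearest other peak. The group of 3 closest peaks in chr3 a, within 6.12 kb, was weak, with folds of 4.08 to 4.29. On chromosome 4, chr4 b spans 148000001 to 149000000 and held 3 peaks of 20-fold or more, the most of any autosomal window. The strongest of these, at 148220834 to 148220966, had 664 tags (614 to 716), a fold of 24.4 and input at the minimum. In chr8 a, from 129000001 to 130000000 on chromosome 8, neighbours were close, with a median gap of 15.5 kb, and the highest scoring peak at 129631866 to 129631998 had 420 tags (381 to 462) and a fold of 15.5. The fourth of them, chr11 a, from 69000001 to 70000000 on chromosome 11, had 5 peaks of 8-fold or more (19.2%). Its top peak by score, at 69672277 to 69672409, had 424 tags (385 to 466), a fold of 15.6 and input at the minimum.

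**Figure D2:**
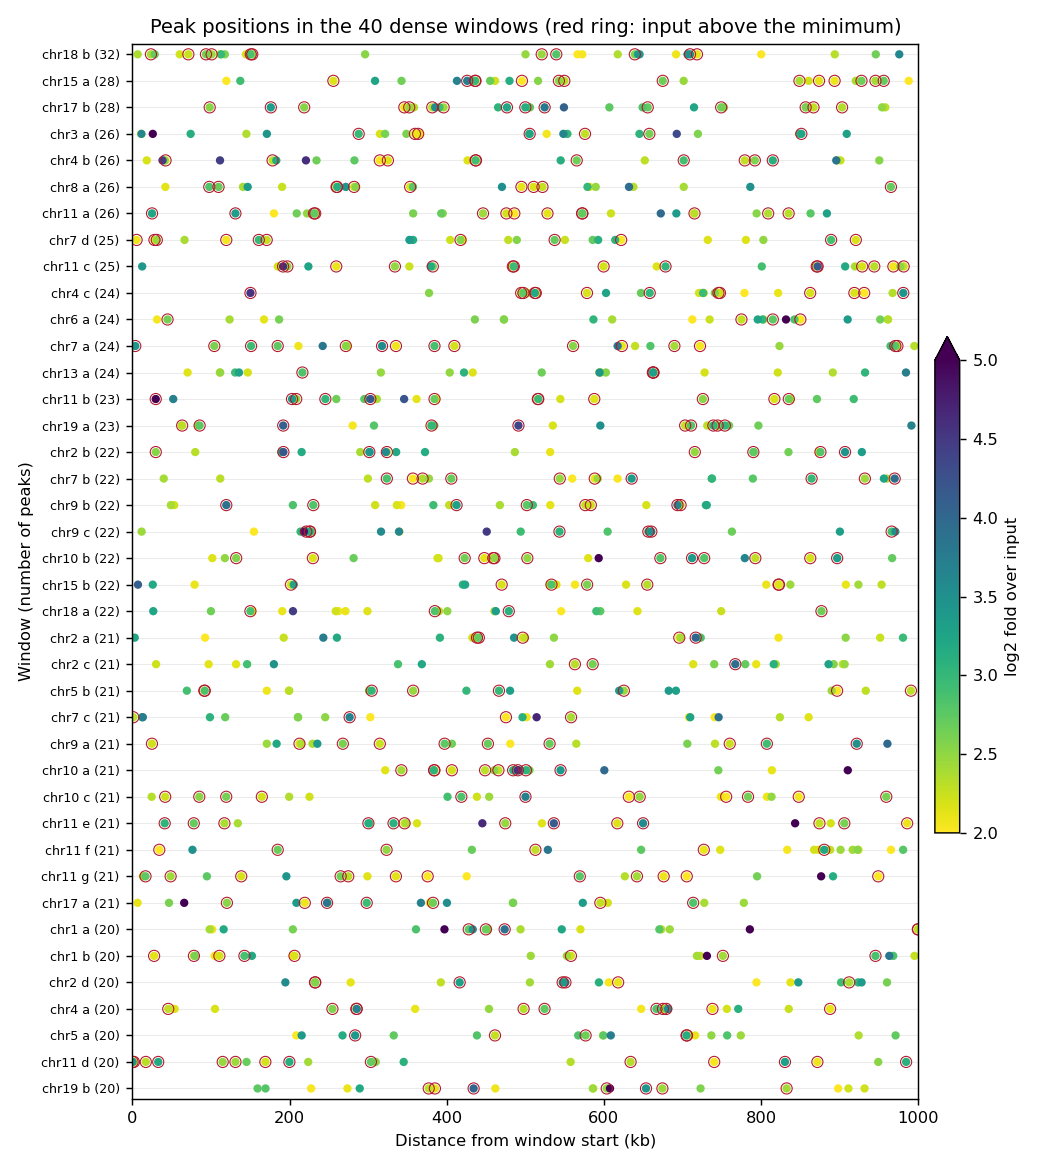
Positions of all 909 peaks in the 40 dense windows, 1 row per window in order of peak count, as distance in kb from the window start. Colour gives the log2 fold over input and a red ring marks a peak with input above the minimum. Rows show close groups, such as the 7 peaks in chr9 c, as well as empty stretches, and the strongest peaks, in dark colours, are spread over the rows.

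The 2 windows of 25 peaks were chr7 d and chr11 c. Input was above the minimum at 44% (24.4 to 65.1) of peaks in the former and 60% (38.7 to 78.9) in the latter. Over all dense windows the share was 40.6%, and over all autosomal peaks 33.2%. In chr7 d, from 134000001 to 135000000 on chromosome 7, input was above the minimum at 11 peaks, and the median of those was 33 input tags. The highest scoring peak there, at 134160872 to 134161004, had 451 tags (410 to 495) over 45 input tags and a fold of 7.90. In chr11 c, from 100000001 to 101000000 on chromosome 11, input was above the minimum at 15 of 25 peaks. The top peak by score, at 100191733 to 100191865, had 754 tags (701 to 810) over 24 input tags, a fold of 24.8.

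The 4 windows of 24 peaks ranged widely in how their tags were shared out. In chr4 c, from 149000001 to 150000000 on chromosome 4, 1 peak at 149150258 to 149150390 held 1280 tags (1211 to 1352), or 22.6% of the tags in the window's peaks. That peak had 43 input tags and a fold of 23.5, and the nearest other peak was 200 kb away. The median fold of chr4 c, 4.97, was the third lowest of the 40. Its median of 168.5 ChIP tags lay near the 172 of all autosomal peaks, and input was above the minimum at 13 of its 24 peaks. In chr6 a, from 99000001 to 100000000 on chromosome 6, the highest scoring peak at 99831619 to 99831751 had 884 tags (827 to 944) and a fold of 32.5, while 8 of 24 peaks scored above the autosomal median. In chr7 a, from 52000001 to 53000000 on chromosome 7, the highest scoring peak at 52384352 to 52384484 had 385 tags (348 to 425) over 41 input tags and a fold of 7.40. The window chr13 a, from 98000001 to 99000000 on chromosome 13, contained 4 pairs of neighbours under 1 kb apart. Its highest scoring peak, at 98662579 to 98662711, had 422 tags (383 to 464), 33 input tags and a neighbour 0.349 kb away.

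Of the 40 dense windows, 34 had no dense window beside them and 6 formed 3 pairs. Dense windows were 1.66% of all autosomal windows, and 6 of the 80 positions directly before or after a dense window were dense. Whether dense windows adjoin more often than that share was not tested. The pair chr4 b and chr4 c holds 50 peaks from 148000001 to 150000000 on chromosome 4. The last peak of chr4 b and the first of chr4 c are 200 kb apart, and a further 227 kb without a peak follows, so the windows touch while their peaks do not run together. The pair chr10 b and chr10 c holds 43 peaks from 79000001 to 81000000 on chromosome 10, with 57.9 kb between the peaks on either side of the border. It is an island, with 3 peaks in the window before it and 3 in the window after. In chr10 b, which ends at 80000000, the highest scoring peak, at 79593306 to 79593438, had 878 tags (821 to 938) and a fold of 32.3 with input at the minimum. In chr10 c, which begins at 80000001, 1 of 21 peaks reached 8-fold, the lowest number in the 40 windows, and that peak, at 80500141 to 80500273, had 460 tags (419 to 504) over 28 input tags and a fold of 12.95. The pair chr11 c and chr11 d holds 45 peaks from 100000001 to 102000000 on chromosome 11. Here the border fell inside a crowded stretch, since 19.002 kb separate the peaks on either side and 32 peaks fit into the best placed 1 Mb. The window before the pair was empty and the window after it held 17 peaks.

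Windows beside a dense window were fuller than most. The 80 positions directly before or after a dense window held a median of 10 peaks (quartiles 6 and 15). The window between chr11 f and chr11 g, with 15 peaks, is counted for both. Of these, 43 held 10 or more peaks, or 53.75%, beside 24.9% of all autosomal windows. A further 14 of the 80 held fewer than 5 peaks, or 17.5%, beside 44.6% of all autosomal windows, and 4 were empty. At a distance of 2 windows the median was 6.5 peaks on each side, and at 10 windows it was 7 on each side, against 5 over all windows. These flanks share chromosomes with the dense windows and 6 of them are themselves dense, so they are not an independent sample. On the 12 chromosomes with more than 1 dense window, the nearest other dense window was a median of 16 windows away. Both neighbours of a dense window held 10 or more peaks in 13 cases and fewer than 5 in 1 case, chr15 a.

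**Figure D3:**
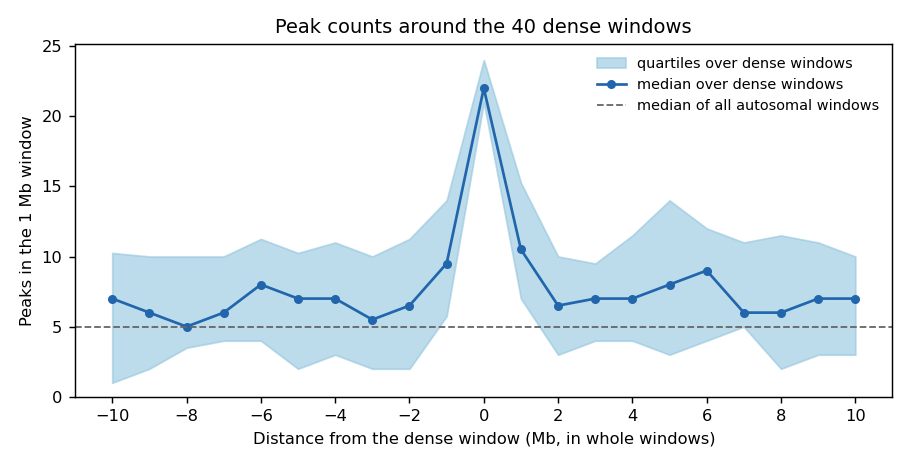
Peaks per 1 Mb window (vertical axis) in windows up to 10 Mb before and after each of the 40 dense windows (horizontal axis), as the median with the quartiles shaded. The dashed line is the median of 5 over all autosomal windows. Medians were 22 in the dense windows, 9.5 and 10.5 in those directly before and after, and between 5 and 9 farther out.

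Peak strength was close in dense windows and elsewhere. Their median was 178 ChIP tags (172 to 186 over peaks, quartiles 139 and 253), and that of autosomal peaks outside dense windows was 172 (170 to 173, quartiles 134 and 242). The median fold over input was 5.73 (5.58 to 5.93) in dense windows and 5.63 (5.59 to 5.67) outside. A fold of 8 or more was reached by 225 of the 909 peaks, or 24.8% (22.0 to 27.7), and the background over all autosomal peaks was 24.1%. A fold of 20 or more was reached by 25 peaks, or 2.75% (1.79 to 4.03), beside a background of 2.34%. Dense windows held 6.04% of autosomal peaks and 6.27% of the tags in autosomal peaks. The share of strong peaks differed little between sparse and crowded windows. Over windows of 1 to 4, 5 to 9, 10 to 14, 15 to 19 and 20 or more peaks, the share at 8-fold or more was 24.8%, 24.3%, 23.2%, 24.9% and 24.8%.

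Autosomal peaks were divided by score into 4 classes of nearly equal size. The weakest class, with scores of 108 to 136, supplied 21.3% of the peaks in dense windows, and the strongest, with scores of 247 or more, supplied 27.8%. Peaks above the median score made up 52.8% (49.5 to 56.1), beside a background of 49.7%. Counting only peaks above the median score, 92 windows held 10 or more, and 32 of these were among the 40 dense windows (34.8% of the former, 80% of the latter). Counting only peaks at or below it, 71 windows held 10 or more, of which 30 were dense windows (42.3% of the former, 75% of the latter). These overlaps, and those that follow, are partly fixed by the count of 20 that chose the windows. Of 137 autosomal windows with 5 or more peaks at 8-fold or more, 27 were dense windows (19.7% of the former, 67.5% of the latter). With 8 or more such peaks there were 15 windows, of which 7 were dense (46.7% and 17.5%). With 2 or more peaks at 20-fold or more there were 31 windows, of which 6 were dense (19.4% and 15%).

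Strength varied from window to window. The median fold of a dense window ran from 4.77 to 8.16, and 20 of the 40 lay above the autosomal median of 5.63. The highest was in chr9 c, from 61000001 to 62000000 on chromosome 9, which held 22 peaks with a median of 266.5 tags. There 12 of 22 peaks reached 8-fold, the most of any autosomal window. The highest scoring peak of chr9 c, at 61218200 to 61218332, had 797 tags (743 to 854), input at the minimum and a fold of 29.3. It belonged to a group of 7 peaks within 13.02 kb whose median fold was 8.06, while the other 15 peaks of the window had a median of 8.25. After chr3 a, the third highest median fold, 6.82, was that of chr2 b, from 59000001 to 60000000 on chromosome 2, with 22 peaks. Its top peak by score, at 59192163 to 59192295, had 529 tags (485 to 576) over 23 input tags and a fold of 18.1.

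The lowest median fold, 4.77, was in chr15 b, from 58000001 to 59000000 on chromosome 15, with 22 peaks. The top peak by score, at 58007121 to 58007253, still had 466 tags (425 to 510), input at the minimum and a fold of 17.2. In chr4 a, from 120000001 to 121000000 on chromosome 4, the median fold of 20 peaks was 4.83, and the highest scoring peak at 120285435 to 120285567 had 497 tags (454 to 543) over 30 input tags. The lowest fold in each of the 40 windows lay between 4 and 4.31, close to the 4-fold that the caller required.

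**Figure D4:**
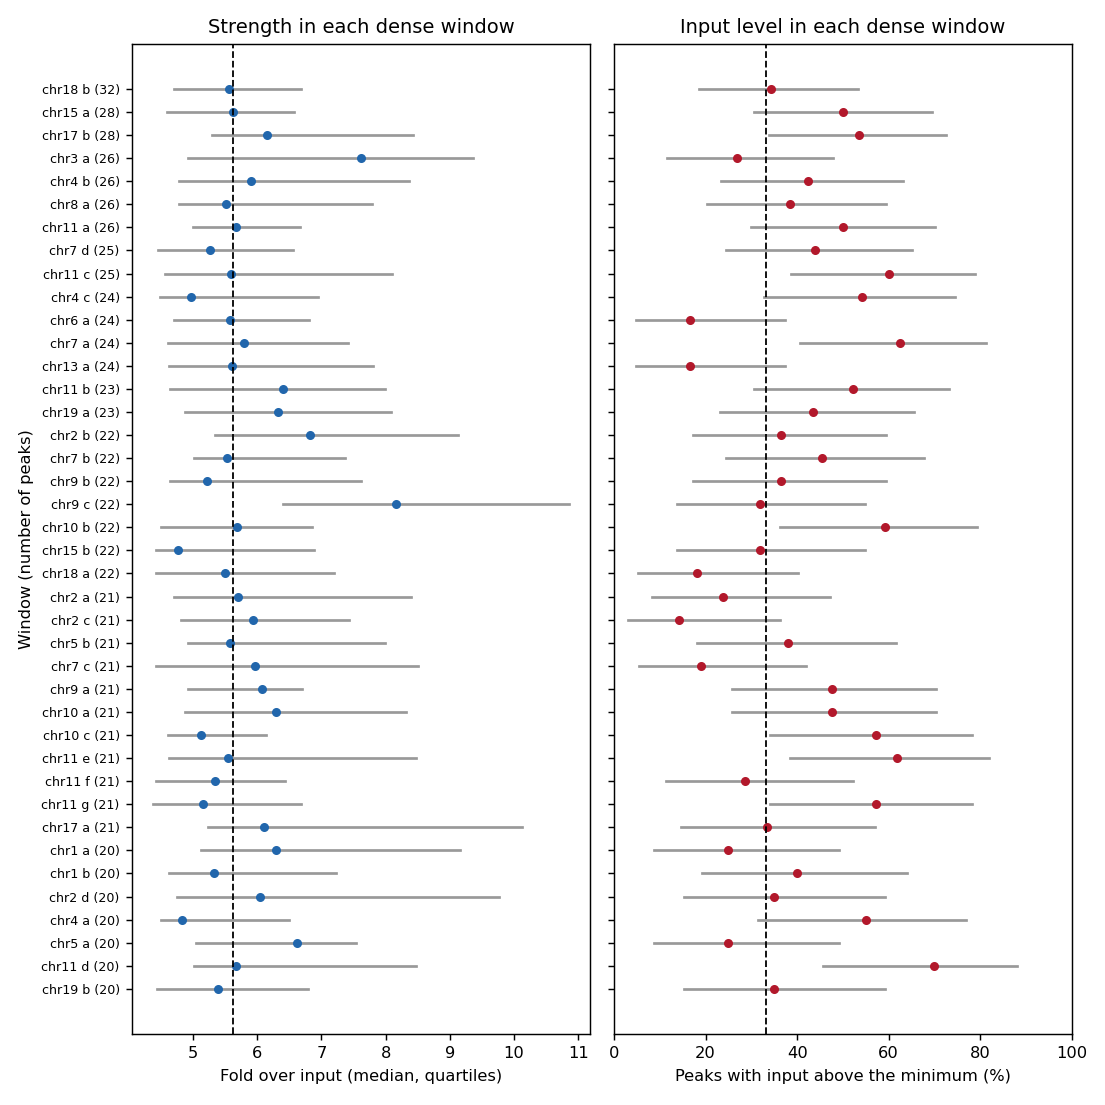
Left, median fold over input (points) with quartiles over peaks (bars) for each of the 40 dense windows in order of peak count. Right, percent of the window's peaks with input above the minimum (points) with exact 95% intervals for counting error (bars). Dashed lines are the values over all autosomal peaks, 5.63 and 33.2%. Median folds lie on both sides of the line, while 28 of 40 windows lie above it for input.

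At least 1 peak of 20-fold or more was found in 18 of the 40 windows, with at most 3 in a window. Such peaks were 2.75% of the peaks in dense windows, near the background of 2.34% of all autosomal peaks. The share of other windows with such a peak was not computed. The highest fold was in chr11 b, from 88000001 to 89000000 on chromosome 11, with 23 peaks. The peak at 88029747 to 88029879 had 1883 tags (1799 to 1970) over 26 input tags, a fold of 57.1, and held 26.9% of the tags in the window's peaks, the highest share among the 40. It lay 22.2 kb from the nearest other peak. The highest scoring peak had no neighbour within 10 kb in 27 of the 40 windows, or 67.5%, beside 56.8% of all peaks in dense windows and 71.7% of all autosomal peaks. The other 13 windows had their highest scoring peak within 10 kb of another, among them chr9 c and chr1 b.

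Input was above the minimum more often in dense windows. The input library measures how much chromatin is recovered from a place without the antibody. Among the 909 peaks, 369 had input above the minimum of 21.4 tags, or 40.6% (37.4 to 43.9), and the background over all autosomal peaks was 33.2%. Outside dense windows the share was 32.7% (32.0 to 33.5). From the sparsest to the densest class of windows it was 23.7%, 31.6%, 35.2%, 37.6% and 40.6%. Among peaks above the minimum, the input level was the same in both sets, with a median of 27 tags and quartiles of 24 and 33 in dense windows and of 24 and 32 outside. The highest input in a dense window was 76 tags, in chr17 a. As input is part of the peak call, these shares are a description only.

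Input above the minimum was also more common at peaks with more ChIP tags. This relation is partly fixed by the caller's requirement of 4-fold over input, which admits peaks with few ChIP tags only where input is low. The shares were therefore set side by side within 4 classes of the autosomal list by ChIP tags. Among peaks of 109 to 134 tags it was 13.1% in dense windows and 11.5% elsewhere. From 135 to 172 tags it was 36.5% and 30.4%, from 173 to 243 tags 53.1% and 42.0%, and from 244 tags upward 54.8% and 47.8%. The share was thus higher in dense windows in each of the 4 classes. By chromosome it was higher in dense windows than in the rest of the same chromosome on 10 of 16 chromosomes. Chromosome 10 showed the widest gap, with 54.7% against 27.5%. On the other 6 the order was the opposite, with the widest gaps on chromosome 13 (16.7% against 29.2%), chromosome 6 (16.7% against 29.0%) and chromosome 2 (27.4% against 34.5%). Chromosome 11, which holds 7 of the windows, had 54.1% against 40.5%. With chromosome 11 left out, a choice made after seeing the data, the share was 37.8% in dense windows and 32.3% elsewhere.

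**Figure D5:**
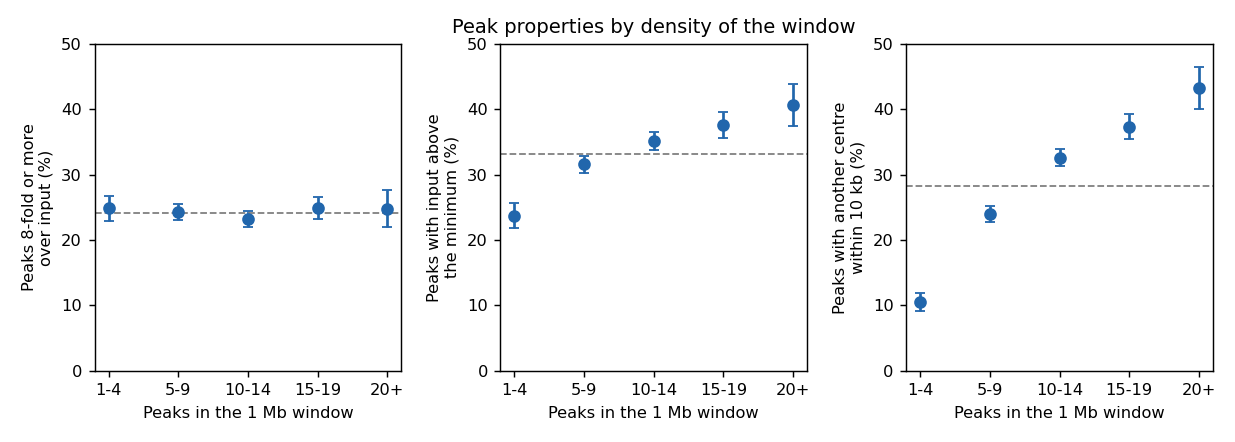
Percent of autosomal peaks that reached 8-fold over input (left), that had input above the minimum (middle) and that had another peak centre within 10 kb (right), by the number of peaks in their 1 Mb window (horizontal axis). Points carry exact 95% intervals for counting error and dashed lines mark all autosomal peaks. The left panel is level, from 24.8% to 24.8%, while the middle panel goes from 23.7% to 40.6% and the right panel from 10.5% to 43.2%.

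Windows differed widely in input. The share of peaks above the minimum ran from 14.3% to 70% with a median of 39.2%. The highest was in chr11 d, from 101000001 to 102000000 on chromosome 11, at 14 of 20 peaks (45.7% to 88.1%). Its highest scoring peak, at 101000315 to 101000447, had 441 tags (401 to 484) over 33 input tags and a fold of 10.5. The next were chr7 a with 15 of 24 peaks (62.5%) and chr11 e with 13 of 21 (61.9%). The latter spans 106000001 to 107000000 on chromosome 11, and its highest scoring peak at 106843186 to 106843318 had 1046 tags (984 to 1111) with input at the minimum and a fold of 38.5. At the other end, chr2 c, from 157000001 to 158000000 on chromosome 2, had input above the minimum at 3 of 21 peaks (3.05% to 36.3%). Its top peak by score, at 157767091 to 157767223, was 1 of these 3, with 649 tags (600 to 701) over 34 input tags and a fold of 15.1. In chr6 a and chr13 a the number was 4 of 24 each, or 16.7%. The intervals of single windows are wide at 20 to 32 peaks, and those of neighbours in this order overlap.

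Windows can also be ranked by their number of peaks with input above the minimum or at it. These numbers are part of the peak count that chose the dense windows, so the overlaps are partly fixed by it. Of the 15 autosomal windows with 12 or more peaks whose input was above the minimum, 12 were dense windows (80% of the former, 30% of the latter), and chr7 a, chr11 c and chr17 b had 15 such peaks each. Counting only peaks with input at the minimum, 54 windows held 13 or more and 26 of these were dense (48.1% of the former, 65% of the latter), led by chr18 b with 21.

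Dense windows held both close groups of peaks and long empty stretches. The median gap between neighbouring centres in the same window was 26.3 kb, against 61.5 kb over all neighbouring autosomal peaks. A shorter gap follows in part from the number of peaks that chose the windows. The autosomal value also includes gaps that cross window borders. Of the 869 gaps inside dense windows, 225 were at most 10 kb and 98 were over 100 kb. These counts were not made for other windows. Another peak centre lay within 10 kb for 393 of the 909 peaks, or 43.2% (39.99 to 46.5), beside a background of 28.3%. A higher share follows in part from the number of peaks per window. A neighbour under 1 kb away was found for 81 peaks, or 8.91%, beside a background of 6.91%. The standard deviation of a window's gaps divided by their mean, which is 0 for even spacing and about 1 for sites scattered at random, had a median of 1.07 and ran from 0.692 in chr11 g to 1.57 in chr1 b. The longest gap inside a window was over 100 kb in 38 of 40 windows, and the exceptions were chr9 b with 84.7 kb and chr13 a with 99.9 kb. Longest gaps of other windows were not computed.

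In most dense windows the first and last peaks lay far apart, which follows in part from the number of peaks per window. The distance between the first and last centre had a median of 914.5 kb, and in 36 of 40 windows the first 0.5 Mb held between 30% and 70% of the peaks. The narrowest was chr10 a, from 59000001 to 60000000 on chromosome 10, whose 21 peaks spanned 589 kb. There 11 peaks, or 52.4%, lay between 59406495 and 59505369, and 7 of them formed a group within 20.8 kb with a median fold of 8.29. Outside that group the median fold was 5.11. The highest scoring peak of chr10 a was in neither, at 59910217 to 59910349, with 1240 tags (1172 to 1311), input at the minimum, a fold of 45.6 and no peak within 96.6 kb. Over all 40 windows the fullest 100 kb held a median of 6 peaks, with 11 in chr10 a and in chr18 b and 4 in chr5 b and chr11 g.

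The shortest median gaps were in chr4 c (14.03 kb), chr10 a (15.2 kb) and chr8 a (15.5 kb). The longest was in chr9 c, at 43.2 kb, a window that also contains the group of 7 peaks within 13.02 kb. The next longest were chr11 g at 42.0 kb and chr13 a at 40.9 kb. The least uneven spacing of the 40 windows was that of chr11 g, from 115000001 to 116000000 on chromosome 11, where 4 of 21 peaks had a neighbour within 10 kb and gaps ran from 3.24 to 144 kb. The top peak by score, at 115876299 to 115876431, had 957 tags (897 to 1020) with input at the minimum and a fold of 35.2. At the other extreme was chr1 b, from 135000001 to 136000000 on chromosome 1, where 15 of 20 peaks had a neighbour within 10 kb in 7 groups, and the longest empty stretch was 301 kb.

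Linking centres at most 10 kb apart gave 168 groups of 2 or more peaks in the 40 windows. Groups in other windows were not counted. The largest group had 2 peaks in 17 windows and 3 or more in 23, of which 4 had a group of 5 or more. Apart from chr9 c and chr10 a, these were chr19 a and chr4 c. In chr19 a, from 28000001 to 29000000 on chromosome 19, 6 of 23 peaks lay within 27.7 kb, from 28731403 to 28759260, with folds of 4.82 to 8.16. The highest scoring peak of chr19 a, at 28491193 to 28491325, was far from that group and had 1313 tags (1243 to 1386) over 49 input tags and a fold of 21.1. In chr4 c, 5 peaks lay within 18.6 kb with folds of 4.22 to 9.03.

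Fold over the surrounding 10000 bp was lower where peaks were crowded. Its median was 9.21 (8.91 to 9.51) in dense windows and 9.98 (9.87 to 10.1) in the other windows, and 10.8 in windows of 1 to 4 peaks. The surroundings in this ratio include any peak inside those 10000 bp, and a neighbour counted as within 10 kb may lie outside them. Whether neighbouring peaks account for the lower ratio was not tested. In dense windows the median was 8.18 for the 393 peaks with a neighbour within 10 kb and 9.94 for the 516 without. In other windows it was 8.60 and 10.5. The share with input above the minimum differed less with spacing, at 42.2% and 39.3% for these 393 and 516 peaks, beside 36.5% and 31.3% in other windows. A fold of 8 or more over input was reached by 24.7% and 24.8% of them.

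The remaining 13 windows held 20 to 22 peaks each. With 22 peaks, chr7 b spans 119000001 to 120000000 on chromosome 7, with a median fold of 5.54 and input above the minimum at 10 peaks. The window chr9 b, from 50000001 to 51000000 on chromosome 9, packed its 22 peaks into 682 kb, and its 8 peaks with input above the minimum had a median of 35 input tags, the highest of the 40. The window chr18 a, from 39000001 to 40000000 on chromosome 18, had the lowest median of ChIP tags, 149.5, and input above the minimum at 4 of 22 peaks. Its strongest site nevertheless reached 22.1-fold.

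With 21 peaks, chr2 a spans 28000001 to 29000000 on chromosome 2. It had 6 peaks of 8-fold or more, or 28.6%, beside 24.1% of all autosomal peaks. The window chr5 b, from 124000001 to 125000000 on chromosome 5, had a highest fold of 10.3, which it shared with chr7 d as the lowest maximum of the 40. In chr7 c, from 129000001 to 130000000 on chromosome 7, 8 peaks (38.1%) reached 8-fold and the strongest 25.7-fold. The window chr9 a, from 21000001 to 22000000 on chromosome 9, had a median fold of 6.07 and 10 peaks with input above the minimum. In chr11 f, from 113000001 to 114000000 on chromosome 11, 9 of 21 peaks lay between 113833186 and 113923978, and 7 peaks scored above the autosomal median, the fewest among the 40. The window chr17 a, from 30000001 to 31000000 on chromosome 17, included the peak at 30065951 to 30066083 with 1191 tags (1124 to 1261), input at the minimum and a fold of 43.8.

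With 20 peaks, chr1 a spans 129000001 to 130000000 on chromosome 1 and had a peak at 129397065 to 129397197 with 1114 tags (1050 to 1181) and a fold of 41.0. In chr1 b the peak at 135730962 to 135731094 had 869 tags (812 to 929) and a fold of 32.0. The window chr2 d, from 173000001 to 174000000 on chromosome 2, had 8 peaks of 8-fold or more (40%) but no peak above 337 tags. In chr5 a, from 64000001 to 65000000 on chromosome 5, the median fold was 6.62 and input was above the minimum at 5 peaks. The window chr19 b, from 53000001 to 54000000 on chromosome 19, had a peak of 35.4-fold at 53607693 to 53607825, with 963 tags (903 to 1026) and a neighbour 4.17 kb away.

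Which stretches count as dense depended on where the grid fell. Shifting the grid by 0.5 Mb gave 43 windows of 20 or more peaks with 950 peaks, and 23 of the 40 windows overlapped one of them. Any stretch of 1 Mb that starts at a peak was then taken, a choice made after seeing the data. Overlapping stretches with 20 or more peaks were joined. This gave 96 separate regions that each contain such a stretch, of which 37 overlap the 40 windows and 59 overlap none of them. The fullest 1 Mb held 34 peaks, in the region around chr18 b from 54252316 to 56628831. Among these 59, the fullest 1 Mb held 27 peaks, in the regions that span 42743106 to 44087218 of chromosome 13 and 76244856 to 77996461 of chromosome 14. The longest region, 3.32 Mb with 68 peaks, ran over chr4 b and chr4 c from 147222505 to 150546829.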

How the data were processed

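Nkx6.1 ChIP and input chromatin of mouse islets were compared by the authors with HOMER findPeaks in factor style, per the file headers. Bowtie and the mm9 build are named in the submitters' processing notes. No tool version was found in the labels or headers. The peaks, per the file headers, are 133 bp wide and were called with a false discovery rate of 0.001, 4-fold over input and over the local 10000 bp, and at most 10 tags per position. The deposited columns hold a normalized tag signal per 10000000 tags, a ChIP tag signal, an input tag signal, fold ratios, a score, a focus ratio (a fraction) and p-values by the Poisson model, as the authors' caller wrote them. The p-value and normalized signal columns were not used. The ChIP signal steps by 0.788, and in units of that step 100% of peaks came within 0.1 of a whole tag. This ChIP signal divided by the input signal differed from the deposited fold by at most 0.221%. The lowest input value, 21.4, was read as a minimum set by the caller.

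Windows of 1 Mb were counted from the first to the last listed peak of each autosome. Unmappable sequence was not removed. No test was run, as each group has 1 library and the rule used the peak calls. The tiling was tested on simulated data. The windows and measures were chosen with earlier results of these data known. Windows named with full values were those with most peaks (24 or more), all adjoining ones, and the 3 highest and 3 lowest by median fold, by share with input above the minimum and by median gap, each with its highest scoring peak. The windows chr11 b, chr19 a and chr1 b and the notes on the remaining windows were added after their values were seen. The software was Python 3.11.15 with pandas 2.3.3, numpy 2.4.6, matplotlib 3.10.9 and scipy 1.17.1.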

Additional observations from a re-analysis of the deposited data

How the results depend on the processing

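The number of dense windows depended on the thresholds by construction, since fewer peaks or a higher count leave fewer windows. Of 40 windows with 909 peaks, 1 window with 21 peaks was left among peaks scoring above the median, 4 with 86 at 5-fold or more over input, and 0 with 0 at 8-fold or more. A count of 25 or more left 9 windows with 242 peaks, and 15 or more gave 188 with 3337. Windows of 0.5 Mb with 10 or more peaks numbered 217 with 2558 peaks, and windows of 2 Mb with 40 or more numbered 6 with 259. Adjoining windows numbered 6, in runs of at most 2. There were 54 at 15 or more peaks, with a longest run of 4, and 0 both at 25 or more and among peaks scoring above the median, with a longest run of 1.

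With 1 tag added on both sides the median fold over input fell to 5.54 from 5.73. The share with input above the minimum, 40.6%, was 36.8% with the grid shifted by 0.5 Mb, against 32.95% outside the dense windows. At 25 or more peaks it was 44.2%, against 33.0% outside. It was also above the share outside at 15 or more peaks and without chromosome 11. The other settings were not compared in this way. The median gap of 26.3 kb was 29.9 kb at 15 or more peaks and 21.7 kb at 25 or more. Peaks with another centre within 10 kb made up 43.2%, and 38.96% and 48.4% in these settings, 37.7% with peaks under 1 kb apart joined, and 28.3% within 5 kb and 71.6% within 25 kb. In all, 54 of 84 recomputed values stayed within 1.5 times a count or within the counting interval of a median or share. Leaving out chromosome 11 was added after seeing the data. No paired analysis was possible because there is only 1 library per group. Input at the minimum for most peaks limits the fold values, and no site under 109 ChIP tags can be listed.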
